A study of Mus musculus with 6 samples.

Results

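The genes examined here oxidise pyruvate, run the citric acid cycle and carry reducing equivalents into the mitochondrion. They were listed by name: 6 of the pyruvate dehydrogenase complex and its kinases, 15 of the cycle, 5 of the malate-aspartate shuttle and 5 of adjoining reactions, 31 in all. Of these, 29 had a probe set to which the array's annotation gives that symbol alone, and they hold 42 of the 12488 probe sets on the array. Pdk2 and Slc25a13 had none, so no array reading is given for them. Total RNA of soleus, a postural muscle rich in slow oxidative fibres, had been hybridised to Affymetrix mouse expression arrays. There were 3 samples of male wild-type C57BL/6 mice and 3 of male BERKO mice, which lack estrogen receptor beta, a nuclear receptor encoded by Esr2. The labels give no age, no treatment and no strain for the knockout, and do not say that each sample is a separate animal, so p-values reflect the spread between samples that may be technical. All 6 labels name the same lot, and 4 of the 6 titles share a prefix whose meaning is not stated, as do the other 2 (replicate 2 of each group). BERKO mice lack the receptor throughout life and in all tissues, so a difference in soleus need not arise in muscle. In whole muscle RNA, fewer cells of a type and less transcript per cell cannot be told apart.

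Pyruvate from glycolysis enters the mitochondrion and is converted by pyruvate dehydrogenase to acetyl-CoA, a step that pyruvate dehydrogenase kinases switch off by phosphorylation. The citric acid cycle oxidises the acetyl group to carbon dioxide and passes the electrons to NADH and to the respiratory chain. NADH made in the cytosol cannot cross the inner membrane, and the malate-aspartate shuttle carries its electrons across by paired malate dehydrogenases, paired aspartate aminotransferases and exchange carriers. Slow oxidative muscle is rich in these enzymes.

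With the deposited scaling, most of these genes read slightly higher in the knockout, but none passed the test over the whole array. A probe set was tested if its deposited intensity lay above 39.4, the median value on the arrays, for 3 or more of the 6 arrays, and 26 of the 29 genes had such a probe set, 29 probe sets in all. For genes with several, the one with the highest mean stands for the gene. Sucla2, whose tested probe sets differed in direction, is thus counted as higher throughout. Of the 26 genes, 20 were higher in the knockout by the fitted value and 6 lower, with a median log2 difference of 0.094, where 46.8% of all 6369 probe sets tested were higher and their median was -0.016. In limma 0 of the 26 passed an adjusted p of 0.05, as did 0% of all probe sets, and the adjusted p of the 26 ran from 0.923 to 0.996. The count with an unadjusted p under 0.05 was 1, Sdhd, higher in the knockout, where 2.81% of all probe sets were so. The 3 knockout values all lay above the 3 wild-type values for 5 genes, against 5.45% of all probe sets. These 5 were Pdk1, Sdhc, Sdhd, Mdh2 and Slc25a11. For 0 of the 26 did they all lie below, against 5.23%. Every count in this direction depends on the scaling and on brightness, as given further on.

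**Figure D1:**
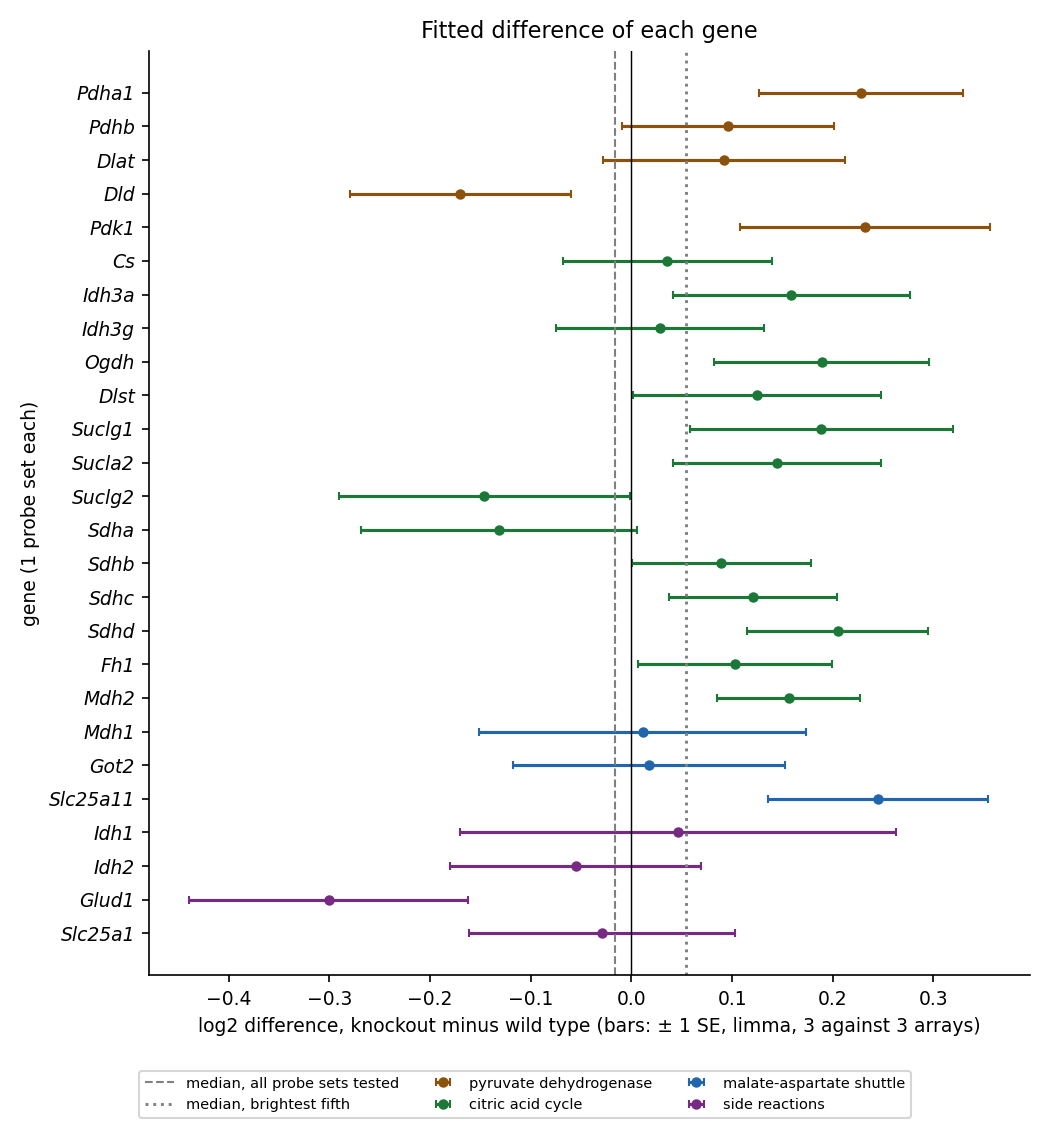
Fitted log2 difference, knockout minus wild type, on the x axis for 26 genes on the y axis, with bars of 1 standard error from limma (3 arrays a group) and colours for the 4 groups of genes; the dashed and dotted lines mark the median of all probe sets tested (-0.016) and of the brightest of 5 equal groups of them (0.054). The points run from -0.30 for Glud1 to 0.25 for Slc25a11, and 20 of 26 lie above 0.

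The pyruvate dehydrogenase complex was measured through 5 genes, of which 4 were higher in the knockout and 1 lower. Pdha1 encodes the catalytic alpha subunit of the first component, the one that the kinases phosphorylate. It read 2374.9, 2761.6 and 2973.4 on the wild-type arrays against 3291.2, 2964.2 and 3211.0 on the knockout arrays. The lowest knockout value fell just under the highest wild-type value, so the groups overlapped. The ratio of knockout to wild type was 1.17 (log2 difference 0.23 ± 0.10 SE, limma adjusted p = 0.923). The Pdha1 difference was 0.090 after quantile normalization, 0.10 after cyclic loess and 0.14 without wild-type replicate 1. Pdk1, a kinase that inactivates the complex, read 206.2, 197.1 and 231.2 on the wild-type arrays against 252.3, 232.1 and 259.8 on the knockout arrays. Its groups did not overlap, by a gap of less than 1 intensity unit, and the log2 difference was 0.23 ± 0.12 (SE; limma adjusted p = 0.937). Of the 5 genes without overlap, Pdk1 was the only one that also had no overlap after quantile normalization and after cyclic loess, with log2 differences of 0.23 under both.

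The beta subunit gene Pdhb read 1413 ± 139.0 in wild type against 1507 ± 94.4 without the receptor (SD, n = 3 each), a difference smaller than the spread of either group. Dlat encodes the acetyltransferase core of the complex. Its brighter probe set read 256.9, 218.9 and 230.4 on the wild-type arrays against 255.5, 242.1 and 253.6 on the knockout arrays. The highest value of all was a wild-type one. A further Dlat probe set read 6.7 to 39.2, below the filter on all arrays, and was not tested. Dld encodes dihydrolipoamide dehydrogenase, the third component, which the 2-oxoglutarate dehydrogenase complex shares. It went the other way, reading 1192.7, 993.6 and 1029.2 on the wild-type arrays against 927.0, 899.2 and 1027.7 on the knockout arrays. Its log2 difference was -0.17 ± 0.11 (SE), and without wild-type replicate 1, the highest of its 6 readings, it was -0.091. The log2 ratio of Dld to Pdha1 on the same array was -0.99, -1.48 and -1.53 on the wild-type arrays and -1.83, -1.72 and -1.64 on the knockout arrays, without overlap. Only the change of this ratio between arrays can be read, since probe sets differ in brightness for reasons other than transcript level. The pair was chosen after the values were seen and was not tested. Other ratios were formed too, and those of Suclg2 to Sucla2, Slc25a11 to Mdh2 and Idh2 to Idh3a overlapped. Those of Dld to Ogdh, Dld to the mean of Pdha1 and Pdhb, and Glud1 to Mdh2 did not. No share over all pairs of probe sets was computed.

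Among the cycle enzymes 14 of 15 genes were tested, and 12 were higher in the knockout, with a median log2 difference of 0.12. The 12 include Sucla2, counted by its brighter probe set alone. Cs encodes citrate synthase, which makes citrate from acetyl-CoA and oxaloacetate and is often used as a measure of mitochondrial content. It was nearly level, at 2012 ± 201.4 in wild type against 2058 ± 143.5 without the receptor (SD, n = 3 each; log2 difference 0.035). After quantile normalization and after cyclic loess Cs was the lower in the knockout, at -0.061 and -0.074.

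NAD-dependent isocitrate dehydrogenase is made of a catalytic alpha subunit and of beta and gamma subunits. The alpha gene Idh3a read 506.4, 497.2 and 471.7 on the wild-type arrays against 529.0, 501.0 and 623.5 on the knockout arrays. Its log2 difference of 0.16 rested in part on knockout replicate 3, without which it was 0.067. The gamma gene Idh3g read 1126.1, 1053.3 and 1088.5 on the wild-type arrays against 1021.2, 1237.3 and 1083.8 on the knockout arrays. Both extremes of Idh3g were knockout arrays, and its log2 difference was 0.028, turning to -0.0034 after quantile normalization and -0.050 after cyclic loess. The beta gene Idh3b read 2.1 to 20.2 and lay below the filter on all arrays, as did the other probe sets of Idh3a (0.6 to 6.3) and Idh3g (3.3 to 24). At that level the readings are not a measure of transcript.

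The 2-oxoglutarate dehydrogenase complex makes succinyl-CoA. Its first component, Ogdh, read 2733.7, 2419.0 and 2944.1 on the wild-type arrays against 3160.0, 2746.5 and 3324.0 on the knockout arrays, a ratio of 1.14 (log2 difference 0.19 ± 0.11 SE; limma adjusted p = 0.949) with 1 knockout value inside the wild-type range. The Ogdh difference was 0.092 after quantile normalization, 0.062 after cyclic loess and 0.11 without wild-type replicate 2. Dlst, the succinyltransferase core, had probe sets that gave similar differences. They were 0.12 ± 0.12 and 0.11 ± 0.16 (SE). The brighter of them read 652.0, 515.6 and 608.2 on the wild-type arrays against 679.9, 588.3 and 662.3 on the knockout arrays. Replicate 2 was the lowest of each group for Ogdh and for both Dlst probe sets, and without wild-type replicate 2 the difference of the brighter Dlst probe set was 0.028.

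Succinyl-CoA ligase pairs a common alpha subunit, Suclg1, with a beta subunit that sets whether ADP (Sucla2) or GDP (Suclg2) is used. Suclg1 read 1083 ± 113.5 in wild type against 1238 ± 173.6 without the receptor (SD, n = 3 each), and its log2 difference of 0.19 was 0.10 without knockout replicate 3 and 0.31 without knockout replicate 2. Sucla2 gave different directions by probe set. The brighter, of a type whose probes may match members of a gene family, read 1323.0, 1167.4 and 1445.9 on the wild-type arrays against 1399.3, 1454.2 and 1481.8 on the knockout arrays. The dimmer, made with relaxed selection rules, read 124.0, 91.0 and 102.6 on the wild-type arrays against 78.8, 67.6 and 93.9 on the knockout arrays. Their log2 differences were 0.14 ± 0.10 and -0.40 ± 0.18 (SE; limma adjusted p = 0.958 and 0.923), so no direction can be given for Sucla2. Suclg2 read 504.5, 506.8 and 410.8 on the wild-type arrays against 371.8, 500.0 and 417.1 on the knockout arrays, with groups that overlapped and a log2 difference of -0.15, which was -0.047 without knockout replicate 1 and -0.26 without knockout replicate 2.

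Succinate dehydrogenase is both a cycle enzyme and complex II of the respiratory chain, with a flavoprotein subunit (Sdha), an iron-sulfur subunit (Sdhb) and membrane anchors (Sdhc and Sdhd). Both anchors and Sdhb were higher in the knockout, and Sdha was lower. Sdhd read 1878.1, 1618.5 and 1750.2 on the wild-type arrays against 1962.5, 2029.6 and 2044.9 on the knockout arrays. The knockout values lay close together and above all wild-type values. The log2 difference was 0.20 ± 0.090 (SE), with the smallest p of the 26 genes (limma adjusted p = 0.923). Sdhc read 2144.2, 1964.2 and 2132.2 on the wild-type arrays against 2226.6, 2226.4 and 2327.7 on the knockout arrays, again without overlap, at a log2 difference of 0.12 ± 0.083 (SE). After quantile normalization and after cyclic loess the groups overlapped for both anchors, with Sdhd at 0.12 and 0.099 and Sdhc at 0.015 and 0.0079. Sdhb stood at 2614 ± 108.5 and 2785 ± 214.8 (SD, n = 3 each), and turned to -0.039 after quantile normalization and -0.034 after cyclic loess.

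Sdha read 667.1, 503.4 and 540.1 on the wild-type arrays against 466.0, 567.3 and 521.5 on the knockout arrays. Its log2 difference of -0.13 was -0.013 without wild-type replicate 1. Relative to the mean log2 value of Sdhb, Sdhc and Sdhd on the same array, Sdha stood at -1.90 ± 0.16 in wild type and -2.17 ± 0.14 without the receptor (SD, n = 3 each). The groups did not overlap, by a narrow gap, and this ratio too was chosen after the values were seen and was not tested. Wild-type replicate 1 also held the highest reading of the hemoglobin gene Hba-a1, a marker of red cells, at 4499.9 against 1662.2 to 2277.4 on the other arrays. It held the highest readings of Dlat, Dld, Sdha, Glud1 and Slc25a1 as well, of which Dlat was the higher in the knockout by the fitted value. The part of blood in these readings was not tested.

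Promoter sequences are shown for Sdhd and for the genes that share a motif with it, since Sdhd had the smallest p and its partner Sdha went the other way. They come from RefSeq, build GRCm38.p6, 250 bases before to 50 after the annotated start, and 29 of the 31 genes matched the table by symbol, Pdk2 and Slc25a13 among them. Idh3a and Sdhc did not match and were not searched. The motifs searched on both strands were TCAAGGTCA for estrogen-related receptors, orphan relatives of the estrogen receptors that act on mitochondrial genes, the palindromic consensus of NRF1, a factor that drives mitochondrial genes, CCGGAAGT for GABP, and the full estrogen response element. The Sdhd promoter, chr9:50603800-50604099 on the minus strand, is given 5′ to 3′ with the NRF1 match and then the reverse complement of the estrogen-related receptor match in capitals, which do not overlap.
Sdhd: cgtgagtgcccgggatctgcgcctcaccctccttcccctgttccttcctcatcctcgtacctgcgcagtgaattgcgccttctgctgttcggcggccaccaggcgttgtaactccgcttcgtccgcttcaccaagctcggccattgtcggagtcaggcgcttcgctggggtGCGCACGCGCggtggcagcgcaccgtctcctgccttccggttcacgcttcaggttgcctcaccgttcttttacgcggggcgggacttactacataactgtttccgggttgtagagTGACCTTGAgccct
The other promoters with an NRF1 match were those of Sdha, Sucla2 and Dld, shown as 40 bases with 1 match in capitals, at chr13:74350314-74350353 (minus strand), chr14:73552754-73552793 (plus strand) and chr12:31351422-31351461 (minus strand). The Sdha promoter held 3 matches, of which only the first is shown. The Sucla2 capitals are the reverse complement of the motif.
Sdha: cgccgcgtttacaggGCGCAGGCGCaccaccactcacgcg
Sucla2: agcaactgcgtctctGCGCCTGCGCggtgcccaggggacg
Dld: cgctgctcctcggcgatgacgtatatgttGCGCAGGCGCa
Of 38 promoters of the 29 genes 4 held the NRF1 motif (10.5%), against 4.60% of all 32851 promoters in the table. The estrogen-related receptor motif was in 1 of the 38, that of Sdhd, against 0.423% of all, and the GABP motif was in 1, that of Dlst, against 3.89%. The full estrogen response element was in 0 of the 38 and in 23 of all promoters (0.070%). The genes with an NRF1 match did not share a direction: Sdhd was higher and Sdha and Dld lower in the knockout, and Sucla2 differed by probe set. A match is a string of letters in this window and shows no binding.

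The last steps of the cycle are catalysed by fumarase and mitochondrial malate dehydrogenase. Fh1, the fumarase gene, read 1042 ± 38.2 in wild type against 1120 ± 73.4 without the receptor (SD, n = 3 each), with a log2 difference of 0.10 that was 0.025 after cyclic loess. Mdh2, which makes oxaloacetate from malate and also serves the shuttle, read 3910.8, 3907.6 and 3956.7 on the wild-type arrays against 4290.9, 4353.1 and 4480.2 on the knockout arrays. It varied least within groups of all 26 genes, with a coefficient of variation of 1.64%, and its groups stood clearly apart on the deposited scale. The ratio was 1.11 (log2 difference 0.16 ± 0.071 SE; limma adjusted p = 0.923). The difference was the same on the 4 arrays sharing a title prefix and on the other 2 arrays, at 0.16 each. It was 0.048 after quantile normalization and 0.011 after cyclic loess, with groups that then overlapped.

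**Figure D2:**
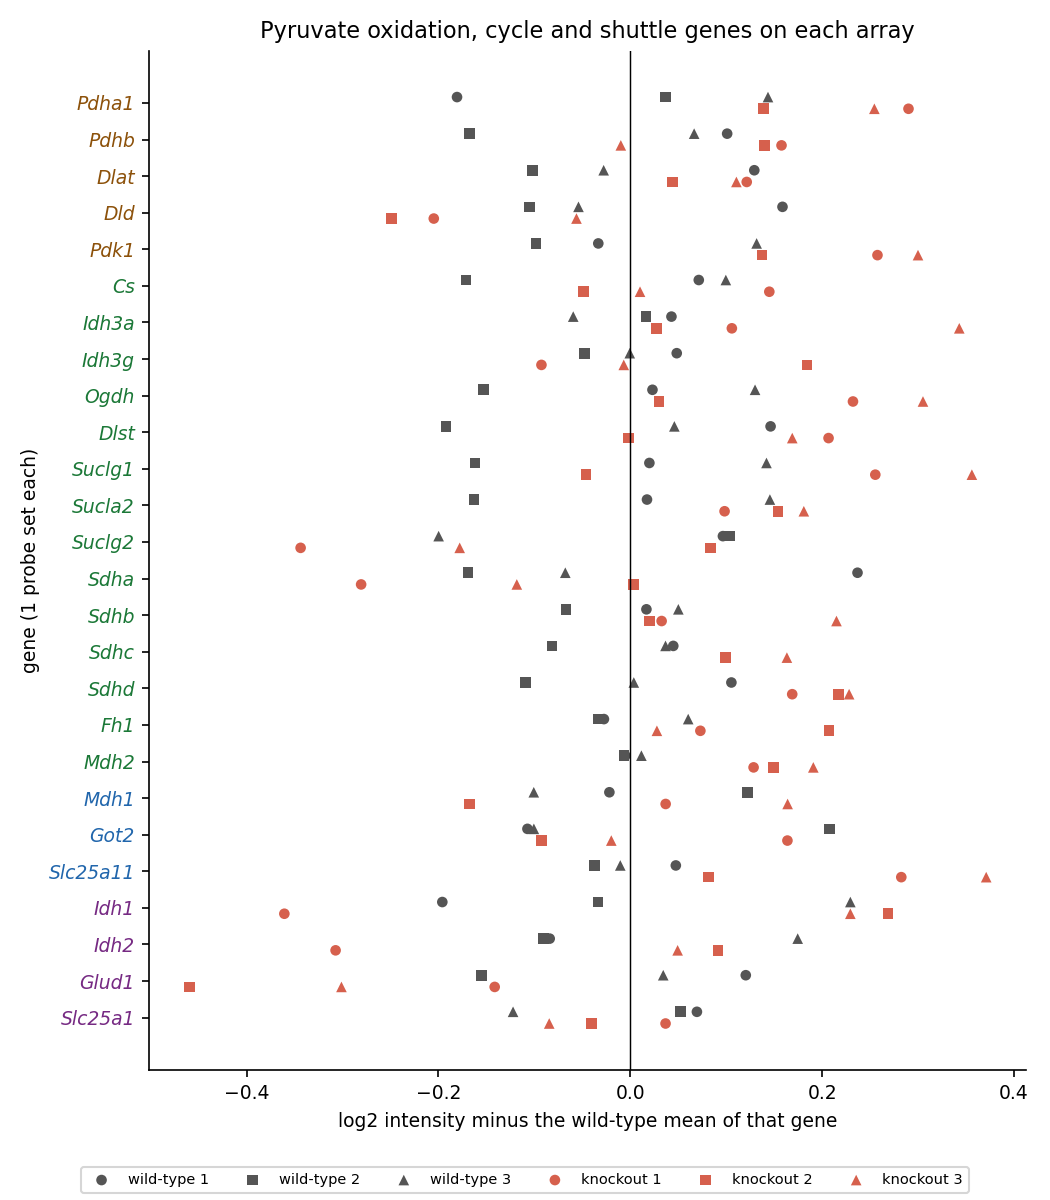
Log2 intensity of 26 genes (y axis, coloured by group of genes) minus each gene's wild-type mean (x axis) on the 3 wild-type arrays (grey) and the 3 knockout arrays (red), with a symbol for each replicate number. Arrays of the same replicate number have adjacent title numbers, and the labels do not say whether these mark pairs. The groups lie apart for Pdk1, Sdhc, Sdhd, Mdh2 and Slc25a11, and wild-type replicate 2, the grey square, is the leftmost point for 14 of 26 genes.

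In the malate-aspartate shuttle 3 of 5 genes were tested. The one with the largest difference was Slc25a11, the carrier that exchanges malate for 2-oxoglutarate across the inner membrane. It read 714.2, 673.5 and 686.1 on the wild-type arrays against 840.6, 731.2 and 893.8 on the knockout arrays, without overlap. The ratio was 1.19 (log2 difference 0.25 ± 0.11 SE; limma adjusted p = 0.923), the highest of the 26 genes, and it was 0.18 after quantile normalization and 0.19 after cyclic loess, where the groups overlapped. Its size differed between the 4 arrays sharing a title prefix (0.31) and the other 2 (0.12).

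The groups overlapped for the other shuttle genes tested, Mdh1 and Got2, while Mdh2 was counted with the cycle. Mdh1, the cytosolic malate dehydrogenase, read 77.1, 85.2 and 73.0 on the wild-type arrays against 80.3, 69.7 and 87.7 on the knockout arrays, with a log2 difference of 0.011 ± 0.16 (SE). Got2, the mitochondrial aspartate aminotransferase, read 300.9, 374.3 and 302.3 on the wild-type arrays against 363.1, 304.0 and 319.7 on the knockout arrays, with a log2 difference of 0.017 ± 0.14 (SE). That Got2 probe set was made with relaxed selection rules, while the other Got2 probe set read 2.2 to 5.9, below the floor of 7.8 on all arrays. Got1, the cytosolic aminotransferase, read 1.6 to 4.0, also below the floor, so the array gave no level for it. For both Mdh1 and Got2 the knockout was the lower on the 2 arrays of the smaller prefix and the higher on the other 4: -0.29 against 0.16 for Mdh1 and -0.30 against 0.18 for Got2. The shuttle's median of 0.017 therefore stood at 0.18 on those 4 arrays and at -0.29 on the other 2.

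The adjoining reactions feed or drain the cycle. Glud1 encodes glutamate dehydrogenase, which turns glutamate into 2-oxoglutarate, and it had the most negative fitted difference of the 26 genes. Its tested probe set read 257.3, 212.6 and 242.4 on the wild-type arrays against 214.6, 172.1 and 192.1 on the knockout arrays. The highest knockout value exceeded the lowest wild-type value by 2 units, so the groups touched. The ratio was 0.812 (log2 difference -0.30 ± 0.14 SE; limma adjusted p = 0.923), and the difference was -0.30 on the 4 arrays sharing a title prefix and -0.30 on the other 2. Under all 4 scalings it lay between -0.30 and -0.23, and after quantile normalization the groups did not overlap. The other Glud1 probe set read 7.9 to 22.7 and was not tested.

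Idh2, the mitochondrial NADP-dependent isocitrate dehydrogenase, read 3143.7, 3129.3 and 3760.8 on the wild-type arrays against 2693.0, 3550.1 and 3448.2 on the knockout arrays, with a log2 difference of -0.055 ± 0.12 (SE). Knockout replicate 1 was the lowest of the 6 and, without it, the difference was 0.070. Its cytosolic counterpart Idh1 varied most within groups, with a coefficient of variation of 19.2%, and read 55.4 to 85.7 with both extremes in the knockout. Slc25a1, the carrier that exports citrate for lipid synthesis, read 129.4, 127.9 and 113.3 on the wild-type arrays against 126.5, 119.9 and 116.3 on the knockout arrays. Its second probe set read 52.0, 59.6 and 52.2 on the wild-type arrays against 59.8, 32.7 and 44.0 on the knockout arrays. The differences were -0.029 and -0.30 ± 0.26 (SE), with knockout replicate 2 the lowest of the 6 in the latter.

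Pcx encodes pyruvate carboxylase, which replenishes oxaloacetate. Of its ordinary probe sets none passed the filter. The brighter, of the gene-family type, read 39.9, 48.5 and 36.3 on the wild-type arrays against 33.8, 28.3 and 32.8 on the knockout arrays, lower without overlap but above 39.4 on 2 arrays only. The other read 8.6 to 12.6. The array also carries control probe sets for Pcx, and that at its 3′ end read 89.6, 122.5 and 132.6 on the wild-type arrays against 136.4, 125.1 and 117.2 on the knockout arrays, so it did not show the decrease. The control probe sets nearer the 5′ end read 7.9 to 46.5. No direction can be given for Pcx. Fat cells express several of these adjoining genes strongly, and 7 of 10 fat-cell markers were measured. Their summed intensity ran from 3552.3 to 4267.1 in wild type and from 3434.5 to 3589.5 in the knockout (exact two-sided permutation p = 0.2). Most of each sum was Lpl, which read 2396.9 to 3428.1 over the 6 arrays and had a log2 difference of -0.042. The sum therefore says little about the other markers. Of the 7, 6 passed the filter, and 1 of these was higher in the knockout. Adiponectin, Adipoq, read 81.4, 231.8 and 222.1 on the wild-type arrays against 70.3, 120.1 and 75.8 on the knockout arrays. The part of fat in the readings of Glud1, Idh1, Slc25a1 and Pcx was not tested.

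The 26 genes did not vary independently across arrays. Wild-type replicate 2 gave the lowest of the 6 readings for 14 of 26 genes, among them 10 of the 14 cycle genes, and the lowest of the wild-type readings for 19 of 26. Knockout replicate 2, which shares its title prefix, gave the lowest of the knockout readings for 15 of 26. Knockout replicate 3 gave the highest reading for 11. Taking each gene relative to its mean over 6 arrays, the median of the 26 was -0.028, -0.094 and 0.0019 on the wild-type arrays and 0.045, 0.0096 and 0.10 on the knockout arrays, so all knockout medians exceeded all wild-type ones. The brightest of 5 equal groups of probe sets by mean signal, which holds 20 of the 26 genes, separated in the same way, at -0.032, -0.035 and -0.025 on the wild-type arrays and 0.0073, 0.061 and 0.025 on the knockout arrays. Over all probe sets tested these medians ran from -0.0047 to 0.020. Without wild-type replicate 2 the median log2 difference of the 26 genes was 0.059, that of the cycle genes 0.071 and that of the pyruvate dehydrogenase genes 0.041. That fit kept knockout replicate 2, the other array of the same title prefix. Without knockout replicate 2 instead, the median of the 26 genes was 0.11. On the 4 arrays sharing a title prefix 17 of 26 genes were higher in the knockout (median 0.078), and on the 2 arrays sharing the other, 20 of 26 (median 0.15), with no test for the latter. Higher under both were 14 genes and lower under both 3, namely Dld, Suclg2 and Glud1.

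**Figure D3:**
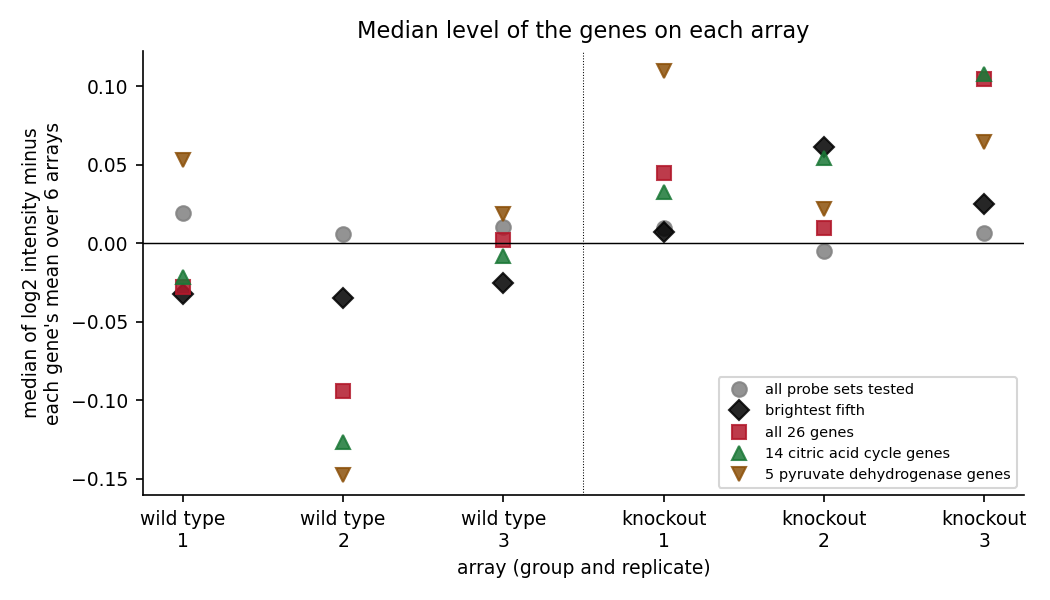
Median over genes of log2 intensity minus each gene's mean over 6 arrays (y axis) on each array (x axis), for all probe sets tested, the brightest of 5 equal groups, the 26 genes, 14 cycle genes and 5 pyruvate dehydrogenase genes. The 26 genes were lowest on wild-type replicate 2 (-0.094) and highest on knockout replicate 3 (0.10), and the brightest group of probe sets too was lower on all wild-type arrays (-0.035 to -0.025) than on all knockout arrays (0.0073 to 0.061). All probe sets together stayed between -0.0047 and 0.020.

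Most of these transcripts are bright, and bright probe sets as a class read higher in the knockout. When the tested probe sets were divided into 5 equal groups by mean signal, 20 of the 26 genes fell in the brightest group. In that group 65.4% of all probe sets were higher in the knockout, with a median log2 difference of 0.054, and 11.9% were higher without overlap. Of the 20 genes, 16 were higher, with a median of 0.11, and 4 were higher without overlap. These 5 groups were formed after the data were seen. Quantile normalization and cyclic loess bring the brightest group's median to 0.0086 and 0.0021. Under these scalings 17 and 16 of the 26 genes were higher, with medians of 0.054 and 0.018, and 1 gene each, Pdk1, was higher without overlap, against 5.19% and 5.01% of all probe sets. One gene each was lower without overlap, Glud1 and Dld, against 4.13% and 4.41%. Scaling to a common median put the typical probe set at 0.051, and 22 of 26 genes were then higher, 10 of them without overlap, against 9.58% of all. With that scaling 60.9% of all probe sets and 80.1% of the brightest group were higher, and with quantile normalization and cyclic loess 50.5% and 49.5% of all. Of the 26 genes 16 were higher under all 4 scalings, 4 were lower (Dld, Glud1, Sdha and Suclg2) and 6 turned direction (Cs, Got2, Idh2, Idh3g, Sdhb and Slc25a1).

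**Figure D4:**
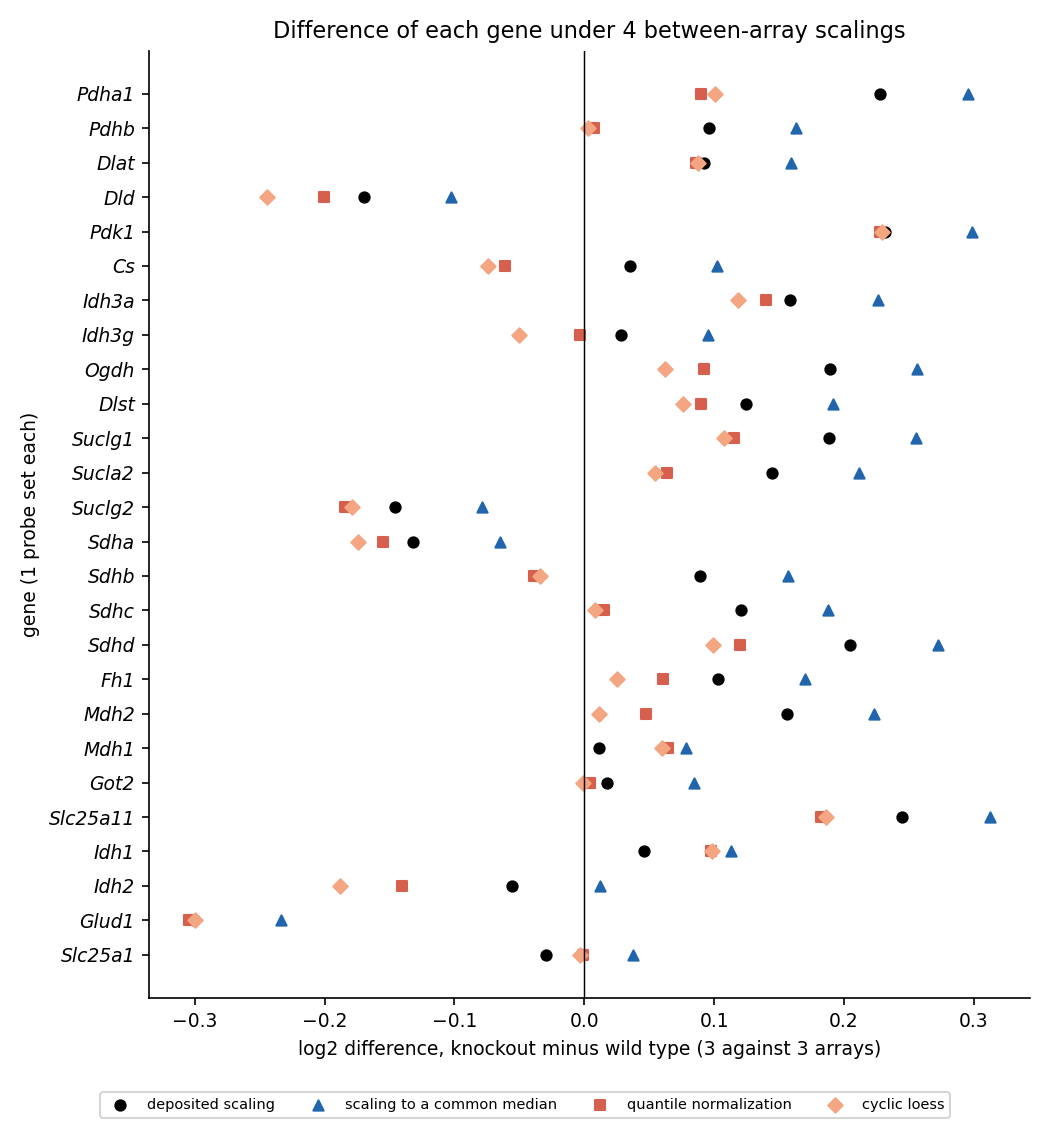
Log2 difference, knockout minus wild type (x axis, 3 arrays a group), of 26 genes (y axis) with the deposited values and after 3 other between-array scalings. Quantile normalization and cyclic loess move most bright genes toward 0 (Mdh2 from 0.16 to 0.048 and 0.011), while Pdk1 stays near 0.23 and Glud1 near -0.30.

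Other genes of pyruvate and cycle metabolism, from a list of 50, were described in the same way. Of these 29 were measured and 23 tested, 10 higher and 13 lower in the knockout, with a median log2 difference of -0.015, and 0 had an unadjusted p under 0.05 or passed the adjusted threshold in limma. In this list 1 gene was higher without overlap and 1 lower, no larger a share than the 5.45% and 5.23% of all probe sets. The first was Bckdk, the kinase that inactivates branched-chain ketoacid dehydrogenase, a relative of the pyruvate complex. It read 544.1, 534.5 and 579.7 on the wild-type arrays against 641.8, 594.9 and 625.6 on the knockout arrays. The other was Acly, which splits exported citrate to acetyl-CoA in the cytosol, at 134.6, 144.5 and 133.6 on the wild-type arrays against 106.2, 126.5 and 132.3 on the knockout arrays. Pdk4, the pyruvate dehydrogenase kinase that fasting induces in muscle, read 1214.2, 3424.1 and 2324.5 on the wild-type arrays against 2628.9, 2807.1 and 1287.4 on the knockout arrays. It ranged widely in both groups, with a log2 difference of -0.0082 ± 0.38 (SE). Malic enzyme Me1 stood at 257 ± 7.75 and 250 ± 58.3 (SD, n = 3 each). The mitochondrial pyruvate carrier gene Mpc1 read 3.3 to 6.6, below the floor, and Mpc2 and Slc25a12 had no probe set of 1 symbol.

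Among facts of the whole series, the array medians ran from 36.8 to 40.5 and the 3′ to 5′ ratio of the Gapdh control from 0.953 to 1.12. The Esr2 probe set read 1.3 to 8.4, at or near the floor on all arrays, so the labels could not be checked from it. Markers of slow muscle were abundant: the 10 measured summed to 58250.2 to 74238.5 in wild type and 73066.2 to 80596.3 in the knockout (exact two-sided permutation p = 0.3). Of the 10, 9 were higher in the knockout, where 46.8% of all probe sets and 65.4% of the brightest of the 5 groups were higher. Myl3 and Mb of this list were higher without overlap. Fast-muscle markers summed to 25132.2 to 30483.4 and 27754.5 to 29294.4, with 6 of 9 tested higher. Among the 6, Tnnt3, Tnni2 and Atp2a1 were higher without overlap, against 5.45% of all probe sets and 11.9% of the brightest of the 5 groups. Their log2 differences were 0.24, 0.29 and 0.23. Myh4, Actn3 and Pvalb, the other 3 of the 9, were lower with groups that overlapped, each described by its brightest probe set. The list thus had no common direction. Myh4, the myosin heavy chain of the fastest fibres, read 1610.0, 3670.9 and 499.4 on the wild-type arrays against 211, 790.7 and 73.8 on the knockout arrays, a log2 difference of -2.63 (limma adjusted p = 0.923) that passed the threshold with adjacent title numbers as a replicate block (adjusted p = 0.0031) and under no other alternative fitted. A dim Myh4 probe set, at 34.5 to 52.5, differed by -0.061. Actn3, the alpha-actinin of fast glycolytic fibres, read 519.4, 922.2 and 309.9 on the wild-type arrays against 256.8, 340.2 and 79 on the knockout arrays (log2 difference -1.48), and Pvalb, a calcium buffer of fast fibres, differed by -0.32. The part of fibre type in the readings of the 26 genes was not tested. The sums of endothelial, macrophage, red-cell, Schwann-cell, fibroblast and smooth-muscle markers overlapped between the groups, with exact permutation p-values from 0.2 to 1.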

How the data were processed

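The deposited values are signal intensities, 1 per probe set and array, on a linear scale. The software behind them was not given in the sources used here. The deposited intensities had a mean, without the lowest and highest 2%, of 100.07 to 100.08 on all arrays, so a common scaling was already in place. The annotation names genes, and named genes were read only from probe sets with 1 symbol. The fit and the shares over all probe sets also took in those without a symbol or with several. The array's 66 control probe sets were left out of the fit. Values were floored at their 20th percentile, 7.8, taken to log2 and filtered at the median, 39.4, on at least 3 arrays. Differences were fitted with limma 3.58.1 in R 4.3.3 (lmFit, eBayes with a trend, two-sided) over 6369 probe sets, with Benjamini-Hochberg adjustment over all of them. The median SE of a log2 difference was 0.179, so the number of arrays limits the precision, and 3 against 3 cannot give an exact p below 0.1. The genes and lists were chosen with earlier results of these data known. Values for each array are given for genes with an unadjusted p under 0.05 or without overlap, the 2 with the smallest p in each group of genes and those with several probe sets, and among the other pathway genes Pdk4, Me1 and the carriers Mpc1, Mpc2 and Slc25a12 were to be described if measured. Ogdh, Suclg2, Sdha, Dld, Mdh1, Bckdk, Acly, Adipoq, Lpl, Hba-a1, Myl3, Mb, Myh4, Actn3, Pvalb, Tnnt3, Tnni2 and Atp2a1 were added after their values were seen. Alternatives were other scalings, floors, filters, eBayes settings, array weights, blocks, subsets of arrays and all probe sets. Counting overlap under each scaling, the groups by brightness and a fit with the controls were added after seeing the data. Figures were drawn with matplotlib 3.10.9.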

Additional observations from a re-analysis of the deposited data

How the results depend on the processing

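Whatever alternative was fitted, 0 of the 26 genes passed an adjusted p of 0.05, the lowest being 0.494 for Slc25a11, and 16 to 22 of the 24 to 29 genes fitted were higher in the knockout. Over all probe sets 0 passed, but 1 did without the filter (Hoxd1), with adjacent title numbers as a replicate block (Myh4) and without knockout replicate 1 (Tuba1a), so 0 to 1 when arrays were left out. With that replicate block 20 of 26 genes were higher and the median was 0.094, both as without it. Deviations from the group mean correlated at -0.0052, 0.035 and -0.0029 between arrays with adjacent title numbers. Between the other arrays of different groups they correlated at -0.0565 to 0.0665. With 3 arrays a group these values cannot decide whether the numbers mark pairs. The main fit did not take them as pairs.

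The median of the 26 genes was 0.16 with a common median, 0.018 with cyclic loess and 0.15 on the 2 arrays of the smaller title prefix. Over fits with an array left out it ran from 0.059 to 0.13. The cycle median was 0.054 with quantile normalization, 0.19 with a common median, 0.018 with cyclic loess and 0.18 on those 2 arrays. The shuttle median was 0.18 on the 4 arrays sharing a prefix and -0.29 on the other 2. Under the other alternatives these medians, and under all of them those of the pyruvate dehydrogenase genes and the adjoining reactions, moved by less than the spread between replicates.

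Of the 26 genes 10 changed direction under some alternative, and the cause was not tested beyond the scaling values given above. With quantile normalization these were Idh3g (-0.0034), Sdhb (-0.039) and Cs (-0.061). With a common median they were Slc25a1 (0.038) and Idh2 (0.012). With cyclic loess they were Got2 (-0.00064), Idh3g (-0.050), Sdhb (-0.034) and Cs (-0.074), and with array weights Idh3g (-0.018). On the 4 arrays sharing a prefix they were Idh1 (-0.082), Idh3g (-0.074), Pdhb (-0.0099), Slc25a1 (0.0025) and Cs (-0.0080). On the other 2 arrays they were Got2 (-0.30), Sdha (0.17), Idh2 (0.18) and Mdh1 (-0.29). With an array left out, the log2 difference ran from -0.066 to 0.25 for Idh1, -0.056 to 0.12 for Got2, -0.090 to 0.0054 for Slc25a1, -0.050 to 0.085 for Cs, -0.13 to 0.070 for Idh2, -0.065 to 0.10 for Mdh1 and -0.050 to 0.089 for Idh3g. Weak signal limits Idh3b, Got1 and Pcx, which had no tested level.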
